A study of Mus musculus with 4 samples.

Results

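Daxx, Atrx, Chd1, Chd2, Dek and Nasp encode proteins that handle histone H3 by routes other than the HIRA complex. They were taken by symbol from the deposited count table of mouse zygotes, and all 6 were among its 55291 features. A zygote is the fertilised egg before its first division, when most RNA is what the mother stored in the egg. The injected groups were zygotes labelled H3.3 MO and zygotes labelled H3.3 S31A, each with a control of its own, and there was 1 sample per group. MO is not spelled out in the labels and usually stands for morpholino, an antisense oligonucleotide, while S31A is the usual notation for serine replaced by alanine. What the controls received, and the strain and number of zygotes, are not given in the sources used here.

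H3.3 is an H3 variant that chromatin can take up without replicating its DNA, and the egg holds a maternal store of it. The HIRA complex places H3.3 at active genes and on the paternal chromatin after fertilisation. DAXX, a chaperone that binds H3.3, works with the helicase ATRX at telomeres and at the heterochromatin around centromeres. CHD1 and CHD2 are ATP-driven remodellers, and in Drosophila CHD1 is needed to place H3.3 in the male pronucleus. DEK is a chromatin protein described as a further H3.3 chaperone, and NASP keeps a soluble reserve of H3 with H4.

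Each sample had 2 count columns, called libraries 1 and 2. Whether these come from separate pools of zygotes is not stated, so they were not counted as replicates, and the differences between groups have no replicate check. Library totals ran from 5661621 to 13233371 counts. The 2 controls differed as libraries. MO control libraries had 15156 and 14895 genes with a count, against 11372 and 11768 in S31A control libraries. Mitochondrial genes held 5.55% and 5.23% of counts in MO control libraries, against 9.65% and 10.4% in S31A control libraries. Levels are in CPM, read counts scaled to a common library total with TMM factors. Genes are ranked by level in CPM per kilobase unless stated otherwise, while the spread over libraries is set against mean CPM. A gene was called measured in a comparison where either summed sample reached 10 CPM. In MO injected zygotes H3f3b, one of the genes for H3.3, stood at 2.30 and 10.5 CPM, against 2199 and 1550 CPM in MO control zygotes, and in S31A injected zygotes at 2438 and 2749 CPM, against 1453 and 1819 CPM in S31A control zygotes. H3f3a, the other H3.3 gene, stood at 8.04 and 52.4 CPM in MO injected zygotes, against 462 and 586 CPM in MO control zygotes. In the S31A experiment its libraries overlapped, at 484.5 and 648 CPM in S31A injected zygotes, against 657 and 563 CPM in S31A control zygotes. All 12 oocyte and zygote markers in the table had counts in the data, with a summed level of 5920 to 13900 CPM per library. Of 12 cumulus and granulosa markers 7 were at 0 everywhere, Has2, Ptx3 and Amh among them, and nearly all of their summed 35 to 165 CPM came from Cyp19a1. Of 7 sperm markers 5 were at 0, and the summed level was 1.30 to 6.74 CPM. Of 9 markers of the 2-cell stage 7 had counts. Their summed level was 45.7 to 157 CPM in MO injected and 110 to 116 CPM in MO control zygotes. It was 248 to 331 CPM in S31A injected and 68.4 to 215 CPM in S31A control zygotes. Whether the groups differed in stage was not tested. In such bulk samples fewer cells with an RNA and less of it per cell cannot be told apart.

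Nasp and Dek RNAs were the most abundant of the 6 per kilobase, and Chd1 and Chd2 RNAs were scarce. Over the 8 libraries Nasp had a median of 46.0 CPM per kilobase and a range of 19.8 to 68.0. Dek had a median of 31 and a range of 24.3 to 48.2 CPM per kilobase. Nasp was highest in 6 libraries, and in the other 2, both MO injected, Dek was. Atrx had a median of 20.8 CPM per kilobase with a range of 11.2 to 24.4, and stood below Dek in 8 of 8 libraries although their ranges touched. That place depends on the deposited length, which counts all annotated exon bases of a gene, 21757 for Atrx and 3185 for Dek. In CPM not divided by length Atrx had the highest median of the 6, at 453, against 346 for Nasp and 98.6 for Dek. Daxx, at a median of 12.5 CPM per kilobase with a range of 8.71 to 30.9, stood below Atrx in 7 of 8. The clear break in this order lay between Daxx and Chd1, whose ranges did not overlap. Chd1 had a median of 1.35 CPM per kilobase with a range of 0.378 to 3.05, and Chd2, the lowest in 7 of 8 libraries, had a median of 0.0763 with a range of 0 to 2.23. By their median per kilobase, Nasp stood above 93.8% of the 20110 genes with a count and Chd1 above 55.8%.

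**Figure D1:**
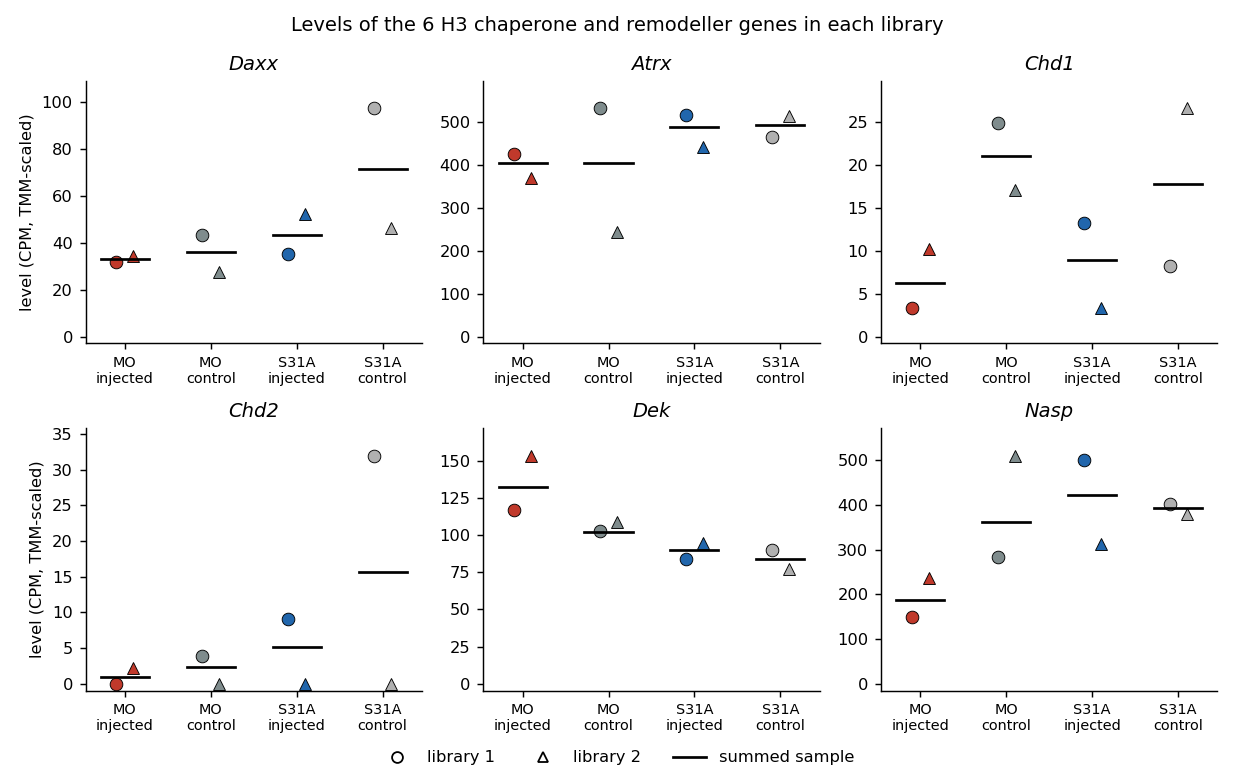
Level of each gene (CPM, vertical axes from 0) in the 4 samples; circles are library 1, triangles library 2 and bars the summed sample. Chd1 and Nasp were lower in both MO injected libraries than in both MO control libraries, Dek was higher there, and Chd2 had counts in 1 library of each sample.

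The DAXX and ATRX pair lay at nearly the same level with and without MO injection. Daxx, on mm10 chromosome 17 from 33909414 to 33915590, stood at 31.9 and 34.5 CPM in MO injected zygotes, against 43.5 and 27.5 CPM in MO control zygotes. The injected libraries lay between the control libraries. The log2 ratio of the summed samples was -0.12, and its exact 95% interval, which covers counting error only, ran from -0.28 to 0.04. Atrx, on chromosome X from 105797615 to 105929403, stood at 425 and 368 CPM in MO injected zygotes, against 530.5 and 243 CPM in MO control zygotes. Its log2 ratio was 0.00 (interval -0.045 to 0.048). The control libraries of Atrx differed 2.18-fold from each other, so the near equality of the sums rests on that mean: the log2 ratio was 0.76 without MO control library 1 and -0.35 without MO control library 2. Without the same libraries the log2 ratio of Daxx was 0.30 and -0.35.

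With S31A injection Atrx again lay level and Daxx was spread widely. Atrx stood at 515 and 442 CPM in S31A injected zygotes, against 464 and 514 CPM in S31A control zygotes, with overlapping libraries and a log2 ratio of -0.02 (interval -0.05 to 0.02). Leaving out single libraries moved that ratio between -0.19 and 0.11. Daxx stood at 35.4 and 52.4 CPM in S31A injected zygotes, against 97.4 and 46.5 CPM in S31A control zygotes. A single control library was high, and the other lay between the injected libraries. The log2 ratio of Daxx was -0.72 (interval -0.84 to -0.61). Without S31A control library 1 it was -0.08, without S31A control library 2 it was -1.13 and without S31A injected library 2 it was -1.03, the last 2 past the 2-fold line. Between the 2 controls Daxx was 1.99-fold higher in S31A control zygotes than in MO control zygotes, just under the 2-fold line, at a log2 ratio of 0.99 and 0.35 without S31A control library 1.

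Chd1 RNA was 3.41-fold lower in MO injected zygotes. The gene lies on chromosome 17 from 15704967 to 15772610, and its protein opens chromatin at transcribed genes. It stood at 3.29 and 10.3 CPM in MO injected zygotes, against 24.9 and 17.1 CPM in MO control zygotes, so all injected libraries lay below all control libraries. The counts behind these values were 43 and 94 in MO injected zygotes and 229 and 104 in MO control zygotes. The log2 ratio was -1.75 (interval -2.07 to -1.48), and 3.90% of the 8110 measured genes had a lower one. Of the 5 measured members Chd1 was the only one at least 2-fold lower and none was at least 2-fold higher, where 12.5% and 11.3% of all measured genes were, or 23.8% in either direction. A count of 1 in 5 is near that background, and Chd1 counted as measured only through MO control zygotes, at 21.1 CPM against 6.20 CPM in MO injected zygotes, so the filter favoured a lower value. The MO injected libraries of Chd1 differed 3.12-fold from each other, and its log2 ratio was -1.11 when library 1 of the injected sample was left out and -2.72 when library 2 was. The log2 ratio per pair of an injected and a control library, ran from -2.85 to -0.73.

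In the S31A experiment Chd1 did not separate the groups. It stood at 13.3 and 3.32 CPM in S31A injected zygotes, against 8.22 and 26.6 CPM in S31A control zygotes. Each group held 1 high and 1 low library, 4.01-fold apart in S31A injected zygotes and 3.24-fold apart in S31A control zygotes. The summed ratio was 1.99-fold lower (log2 ratio -0.98, interval -1.25 to -0.74), and the log2 ratio was 0.16 when control library 2 was left out and -2.42 when injected library 1 was. Chd1 therefore had a ratio of the same sign in both experiments, while its libraries overlapped in the S31A experiment.

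Chd2 RNA was found in a single library of every sample. The gene, on chromosome 7 from 73426638 to 73541830, encodes the nearest relative of CHD1. It had 0 and 20 counts in MO injected libraries 1 and 2, against 36 and 0 counts in MO control libraries 1 and 2. In S31A injected libraries 1 and 2 it had 106 and 0 counts, against 342 and 0 counts in S31A control libraries 1 and 2. The S31A control libraries thus stood at 32.0 CPM and at 0, which allows up to 0.264 CPM at a floor of 3 counts. Such gaps were not rare in that sample, where 706 of 8411 genes that reached 10 CPM in one library (8.39%) had 0 counts in the other. The same held for 8.2% of such genes in S31A injected zygotes, 3.61% in MO injected zygotes and 0.735% (61 of 8300) in MO control zygotes. Chd2 itself reached 10 CPM in a library of S31A control zygotes only. Counts in exactly 1 library of all 4 samples, a pattern looked up after the values of Chd2 were seen, were shared by 11 of the 8981 genes that reached 10 CPM in any summed sample, or 0.122%.

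Any ratio of Chd2 therefore compares 1 library with 1 library. Summed, Chd2 stood at 5.08 CPM in S31A injected zygotes, against 15.6 CPM in S31A control zygotes, 3.07-fold lower (log2 ratio -1.60, interval -1.95 to -1.30). It was the only one of the 6 measured members at least 2-fold lower with S31A injection, and none was at least 2-fold higher, where 16.1% and 14.1% of 8191 measured genes were, or 30.2% in either direction. Chd2 counted as measured there only through the control, and that level came from library 1 alone, so the count says little about the members. Without S31A control library 1 the control has 0 counts, and Chd2 is then at least 19.3-fold higher in S31A injected zygotes at a floor of 3 counts, a direction fixed by which library is left out. In the MO experiment Chd2 was not measured, at 0.906 CPM in MO injected zygotes and 2.28 CPM in MO control zygotes (log2 ratio -1.25, interval -2.20 to -0.51), on 20 and 36 counts. Between controls Chd2 was 6.83-fold higher in S31A control zygotes than in MO control zygotes (log2 ratio 2.72), again through S31A control library 1 alone. It was the only member at least 2-fold higher there and none was at least 2-fold lower, where 13.6% and 16.2% of 8266 measured genes were, or 29.8% in either direction.

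Chd1 and Chd2 are alike enough for the question of shared reads to arise, so their most similar stretch of 100 coding bases is shown. Capitals mark the bases at which the 2 genes differ. The stretch is at positions 1912 to 2011 of the Chd1 and 1927 to 2026 of the Chd2 coding sequence, counted from 1 at the start codon of the longest GENCODE M21 coding transcript, and the genes lie on the plus and the minus strand of mm10.
Chd1: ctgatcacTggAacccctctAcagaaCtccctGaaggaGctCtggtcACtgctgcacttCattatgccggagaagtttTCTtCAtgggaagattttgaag
Chd2: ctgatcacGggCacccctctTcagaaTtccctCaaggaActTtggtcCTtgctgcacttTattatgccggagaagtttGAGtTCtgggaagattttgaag
Even here 15 of 100 bases differed. The aligned coding sequences were 68.9% identical over 3464 bases of Chd1, the longest run that both share was 20 bases, and none of 5084 windows of 50 bases in Chd1 occurred in Chd2. In libraries where Chd2 had 0 counts Chd1 had 31 to 303.

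The Chd2 locus also holds 1810026B05Rik, a noncoding transcript on the same strand whose exons overlap 2628 exon bases of Chd2, or 18.4%. It had 143 counts in S31A injected library 1, the library of that sample in which Chd2 had 106, and 0 in S31A injected library 2. In S31A control zygotes it had 0 counts in both libraries, and in the MO experiment 4 and 11 counts in MO injected zygotes, against 0 and 5 counts in MO control zygotes. How reads over both features were counted is not given in the sources used here.

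Nasp RNA was 1.95-fold lower in MO injected zygotes, just under the 2-fold line. Nasp lies on chromosome 4 from 116601052 to 116627941. It stood at 149 and 237 CPM in MO injected zygotes, against 283 and 511 CPM in MO control zygotes. Both injected libraries were below both control libraries, and the log2 ratio was -0.96 (interval -1.02 to -0.90). Leaving out single libraries moved it between -1.42, without MO control library 1, and -0.56, without MO control library 2. With counts scaled by library totals alone the log2 ratio was -1.07, and that scaling moved the median of all measured genes by a similar amount, to -0.09 from 0.03. In the S31A experiment Nasp stood at 501 and 312.5 CPM in S31A injected zygotes, against 403 and 380 CPM in S31A control zygotes. These control libraries lay between the injected ones, and the log2 ratio was 0.10 (interval 0.06 to 0.14).

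Reads of Nasp can be shared with an intronless copy, because Bowtie2, named in the submitters' processing notes, does not split reads over introns. Gm6986, a processed pseudogene on the plus strand of chromosome 14 from 74297545 to 74298775, aligned to the Nasp coding sequence at 90.6% identity over 98.5% of its length. Its most similar 100 bases, at positions 1470 to 1569 of the Nasp coding sequence, are shown with the differing bases in capitals; Nasp is on the minus strand, and the positions in Gm6986 are 399 to 498 of its GENCODE transcript.
Nasp: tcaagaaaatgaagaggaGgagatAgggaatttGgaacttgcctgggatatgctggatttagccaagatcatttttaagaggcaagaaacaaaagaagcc
Gm6986: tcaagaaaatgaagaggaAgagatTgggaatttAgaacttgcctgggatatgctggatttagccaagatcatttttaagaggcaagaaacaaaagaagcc
In this stretch 3 of 100 bases differed, and the longest run shared by the 2 sequences was 69 bases. Of 2270 windows of 50 bases in Nasp 26 occurred in Gm6986, or 1.15%. Gm6986 had 111 and 229 counts in MO injected zygotes, against 203 and 167 counts in MO control zygotes, which was 5.70% and 10.6% of the Nasp counts in MO injected zygotes and 7.78% and 5.37% in MO control zygotes. Its libraries overlapped, and adding its counts and those of the smaller copy Nasp-ps1 to Nasp left the log2 ratio of Nasp at -0.94. Nasp-ps1, on chromosome 6 from 63160275 to 63160965, had 0 to 6 counts per library.

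Dek was the steadiest of the 6 genes. It lies on chromosome 13 from 47084775 to 47106201 and stood at 117 and 153.5 CPM in MO injected zygotes, against 102.5 and 109 CPM in MO control zygotes. Both injected libraries lay above both control libraries, by a small margin, and the log2 ratio was 0.38 (interval 0.29 to 0.47). In the S31A experiment Dek stood at 84.2 and 94.7 CPM in S31A injected zygotes, against 90.0 and 77.5 CPM in S31A control zygotes, with overlapping libraries and a log2 ratio of 0.09 (interval 0.00 to 0.19). Dek shares 505 exon bases, or 15.9% of its own, with Kdm1b, a histone demethylase gene on the other strand. Kdm1b stood at 215 and 326 CPM in MO injected zygotes, against 223 and 119 CPM in MO control zygotes, and at 380 and 490 CPM in S31A injected zygotes, against 188 and 246 CPM in S31A control zygotes. The strand setting of the counting is not given in the sources used here, so reads in the shared bases cannot be told apart.

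The spread of a gene over all 8 libraries describes how much its level varied, within and between groups, and is not a measure of noise alone. It was taken as the root mean square of the log2 CPM around their mean and includes any difference between groups. Dek had a spread of 0.29 and Atrx of 0.35, smaller than for all but 5% and 9.90% of 7470 genes averaging at least 10 CPM. Daxx had 0.53, Nasp 0.56 and Chd1 1.07, with 30.4%, 33.5% and 74.0% of genes below them. Among genes within 2-fold of its own mean level, Nasp stood higher, with 72.3% of 990 genes below it, while Dek had 6.30% of 2394 below it. By the same measure Chd1 had 45.1% of 2505 genes below it, Atrx 32.3% of 775 and Daxx 25.1% of 3153. Chd1 was thus near the middle of the genes compared, and Atrx was less apart than over all genes. All of these genes averaged at least 10 CPM. For Chd1, at a mean of 13.4 CPM, genes in the lower part of the 2-fold range were therefore left out. Chd2 had a spread of 2.79 at a mean of 5.89 CPM.

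**Figure D2:**
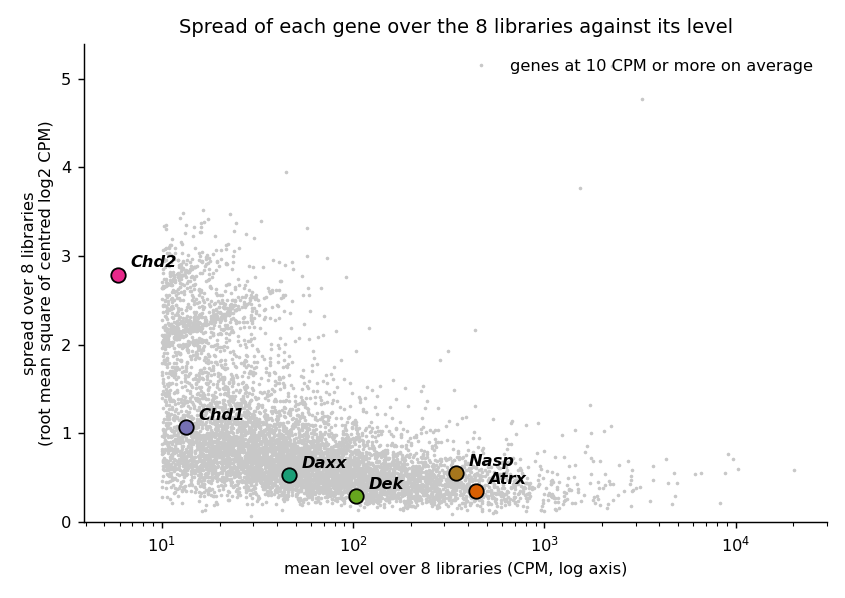
Spread over the 8 libraries (root mean square of centred log2 CPM, vertical axis) against the mean level (CPM, log axis) for the 6 genes and, in grey, all genes at 10 CPM or more on average. Dek, at 0.29, lies at the low edge for its level, and Chd2, at 2.79, is to the left of the grey genes because its mean is 5.89 CPM.

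Measured by the same distance between patterns over the 8 libraries, the genes nearest to each member were picked from 6474 genes, or 6475 for Chd2. For Dek these were Rbm6, Ralgps2 and Btg4, at 0.14, 0.14 and 0.15, where the median gene was at 0.78. For Atrx they were Hs6st1, Acat1 and R3hdm4, at 0.13, 0.14 and 0.16. Nasp was nearest to Ssr1 (0.15), Rhd (0.19) and Fbxw25 (0.19), and Daxx to Apip (0.19), Fbxo3 (0.21) and Tnfaip1 (0.23). Chd1 was nearest to Prpf38a (0.47), Atp1b1 (0.49) and Zbtb7b (0.51), where the median gene was at 1.29. The nearest to Chd2 were Eya4 (1.19), Ahcyl2 (1.77) and Zfp809 (1.88), where the median gene was at 2.87. The distance is not scaled by a gene's own spread, which was 0.29 for Dek, 1.07 for Chd1 and 2.79 for Chd2. Its size therefore does not show which member was followed more closely. The libraries share their 4 samples and their depth with every gene, and these distances are a description.

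**Figure D3:**
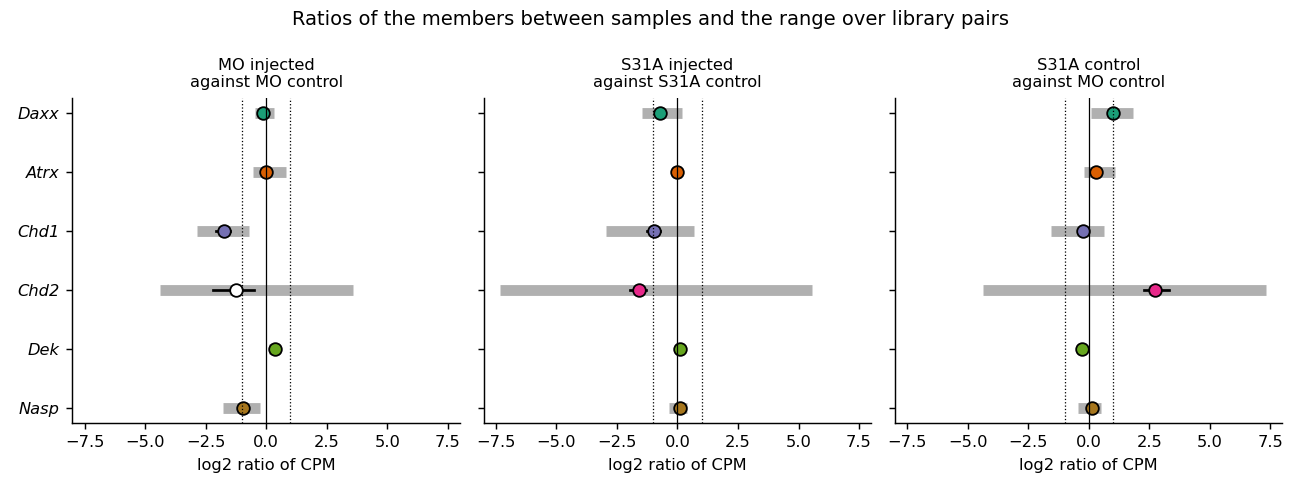
Log2 ratio of CPM for each gene in the 3 comparisons; points are summed samples (open where the gene was not measured), thin black lines the exact 95% counting intervals, grey bars the range over the 4 pairs of libraries, and dotted lines 2-fold. The grey bars stay on the lower side of 0 for Chd1 and Nasp with MO injection and reach both sides for Chd2 in every comparison, where libraries at 0 counts are drawn at values set by the prior count of 2.

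Libraries of 3 of the 5 measured members did not overlap in the MO experiment (Chd1 and Nasp lower, Dek higher), where 40.5% of measured genes did not, 21.3% lower and 19.2% higher. In the S31A experiment this held for none of the 6, against 39.5% of all genes, 19.8% in each direction. Between S31A control and MO control zygotes it held for Daxx, higher in S31A control zygotes at 97.4 and 46.5 CPM against 43.5 and 27.5 CPM in MO control zygotes, and for Dek, lower in S31A control zygotes at a log2 ratio of -0.275. That was 2 of 6, against 46.4% of all genes, 21.2% higher and 25.2% lower.

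Set against the spread between libraries, no ratio of the 6 genes passed edgeR's quasi-likelihood test with Benjamini-Hochberg adjustment over all measured genes. This test compares libraries of 1 sample with libraries of another and does not replace replicates. With MO injection Nasp and Chd1 both had an adjusted p of 0.839 from edgeR, with unadjusted values of 0.0614 for Nasp and 0.136 for Chd1, and the members as a whole ran from 0.839 to 0.983. None had an unadjusted p under 0.05 from edgeR, where 5.17% of all measured genes had. DESeq2 gave Nasp an unadjusted p of 0.0271 and an adjusted p of 0.520 and called no member. Over the alternatives the smallest adjusted p of a member in the MO experiment ran from 0.0812, at Nasp without MO injected library 2, to 0.999. In that fit without MO injected library 2, 980 of 8296 genes passed, or 11.8%, and without MO injected library 1 208 of 8170 passed. With all libraries 0% of measured genes passed edgeR and 0.666% passed DESeq2. The smallest edgeR adjusted p of any measured gene was 0.0742. Even H3f3a and H3f3b, at a median log2 ratio of -6.28, did not pass edgeR with MO injection. A member that failed this test is therefore not shown to be unchanged. With S31A injection edgeR's adjusted p of the members ran from 0.896 to 0.988 (0.0244% of all genes passed edgeR and 7.12% DESeq2), and between controls from 0.587 to 0.998 (0% and 4.32%). Neither tool called a member in these comparisons, and none had an unadjusted p under 0.05, where edgeR gave one to 6.08% of all genes with S31A injection and to 9.73% between controls. The largest member difference between the experiments, S31A ratio minus MO ratio, was at Nasp, 1.06 on the log2 scale. Its adjusted p from edgeR was 0.815 and from DESeq2 0.602, and 0.0334% of 8981 genes passed edgeR's test of that difference and 1.63% DESeq2's. No member had an unadjusted p under 0.05 for that difference from either tool, where 6.38% of all genes had from edgeR.

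A further 50 genes of H3 and H4 handling in 5 lists give the setting. With MO injection 0 of 5 measured HIRA and ASF1 genes were at least 2-fold apart, and their median log2 ratio was 0.42, where the median of all measured genes was 0.03. Of 7 other CHD remodellers 5 were measured, with 0 of 5 at least 2-fold apart and a median of 0.30. These 5 stood at 46.3 to 474 CPM per library in the MO experiment, above Chd1 at 3.29 to 24.9 CPM. They are therefore not a comparison at the level of Chd1. Partners of DAXX and ATRX in heterochromatin and PML bodies had 0 of 9 and a median of -0.20, and FACT, SPT6 and similar chaperones 0 of 11 and a median of -0.14. Among genes of replication-coupled deposition and histone supply 2 of 7 were at least 2-fold higher, and of these Rbbp4, a histone-binding subunit of the CAF-1 complex, had libraries that did not overlap, at 33.9 and 15.7 CPM in MO injected zygotes, against 12.6 and 11.7 CPM in MO control zygotes. Over the 5 lists that is 1 of 37 measured genes at least 2-fold higher without overlap and 0 lower, where 7.29% and 10.4% of all measured genes were. Genes under 10 CPM in both summed samples are left out of these counts, and some went either way without overlap. Ipo4 stood at 0.996 and 2.51 CPM in MO injected zygotes, against 10.2 and 4.93 CPM in MO control zygotes. Sp100 stood at 4.14 and 7.75 CPM in MO injected zygotes, against 1.74 and 0.822 CPM in MO control zygotes. None of the 37 passed edgeR or DESeq2 or had an unadjusted p under 0.05 from edgeR.

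With S31A injection 3 of 39 measured genes of these lists were at least 2-fold higher without overlap and 4 were lower, where 9.19% and 11.4% of all measured genes were. Asf1a, which hands H3 and H4 to HIRA and CAF-1, stood at 501 and 615 CPM in S31A injected zygotes, against 243 and 219 CPM in S31A control zygotes. Iws1, a partner of SPT6 in transcription elongation, stood at 55.1 and 57.3 CPM in S31A injected zygotes, against 15.3 and 15.3 CPM in S31A control zygotes. The remodeller Chd9 stood at 222 and 166 CPM in S31A injected zygotes, against 69.1 and 97.6 CPM in S31A control zygotes. These were the 3 higher genes. On the lower side Npm2, the egg nucleoplasmin that helps open sperm chromatin, stood at 33.4 and 28.2 CPM in S31A injected zygotes, against 87.7 and 116 CPM in S31A control zygotes. Chd5 had 0 counts in both S31A injected libraries, against 11.9 and 10.02 CPM in S31A control zygotes, which is at least 76.4-fold lower with the injected sum set to its floor of 3 counts. Ipo4, which imports H3 and H4, was 33.9-fold lower on 9 counts, and Trim28, a co-repressor in heterochromatin, was 2.36-fold lower. Chd5 and Ipo4 counted as measured only through S31A control zygotes, so the filter favoured a lower value for them.

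None of the 39 passed edgeR with adjustment, although 6 had an unadjusted p under 0.05 there, where 6.08% of all measured genes had. DESeq2 called 7, where it called 7.12% of all measured genes, namely Asf1a, Asf1b, Iws1, Npm2, Hjurp, Chd5 and Chd9. The controls differed at some of the same genes. Iws1 stood at 15.3 and 15.3 CPM in S31A control zygotes, against 45.0 and 41.4 CPM in MO control zygotes, so the S31A injected libraries lay nearer to the MO control. Chd5 was 5.41-fold higher in S31A control zygotes than in MO control zygotes, where it stood at 1.74 and 2.63 CPM. Between the controls it counted as measured only through S31A control zygotes, so the filter favoured a higher value. In that comparison 3 of 40 measured genes of the lists were at least 2-fold higher without overlap and 4 were lower, where 9.67% and 14.5% of all measured genes were.

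**Figure D4:**
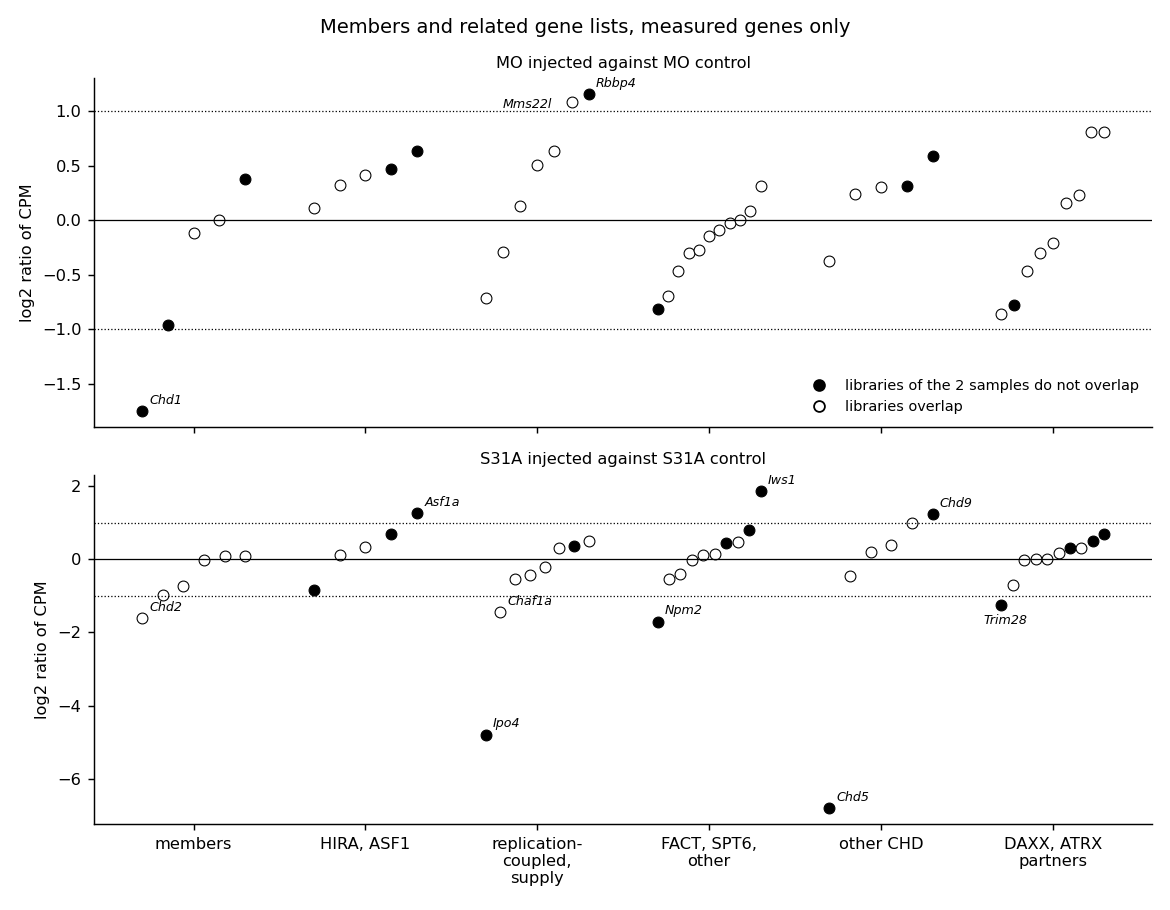
Log2 ratio of CPM (vertical axes, with different ranges) for measured genes of the 6 members and the 5 related lists, MO experiment above and S31A experiment below; filled points have libraries that do not overlap, dotted lines mark 2-fold, and Chd5, at 0 counts after S31A injection, is drawn at its fitted value. Among these measured genes Chd1 is the single one below the 2-fold line in the MO experiment, and it was measured only through MO control zygotes.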

How the data were processed

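RNA was sequenced from 4 zygote samples, 1 per group. The labels list total RNA, and their protocol names PCR amplification of cDNA followed by an NEBNext Ultra II DNA library kit. The submitters' processing notes name FastQC, Bowtie2, featureCounts and DESeq2 with mm10; versions, annotation, strand setting and multi-mapping rules are not given in the sources used here. Raw counts per gene were deposited by the authors, with no normalization; gene length, in bases, is another deposited column, per the file headers. Each sample has 2 count columns, and 0 per-sample columns were left out. A chi-square test gave 47.1 to 123 per degree of freedom between libraries of a sample, so they are not copies.

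Counts were summed per sample and scaled by TMM (edgeR 4.0.16, R 4.3.3). Log2 ratios use a prior count of 2; the 95% intervals, without that prior, are exact (Clopper-Pearson, on the counts' share). PCR copies cannot be told from molecules, so counting error is all that intervals and floors cover. edgeR's quasi-likelihood test and DESeq2 1.42.0 were fitted on all measured genes over libraries. The edgeR steps were also run on counts simulated from edgeR's own fitted spread, which cannot show whether that model suits these libraries. The p-values of both tools measure the spread between libraries, which may be technical. Coding sequences were aligned to GENCODE M21 transcripts with BLAST+ 2.17.0, and copies kept at 85% identity and 80% coverage. Of the symbols, 96.4% are in GENCODE M21, and the 6 genes have the same ends there.

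The members and lists were chosen with earlier results of these data known. The text names all members; genes of related lists at least 2-fold apart without overlap (between the controls only examples); the 3 nearest genes by pattern, without predicted, clone, Mir or Snor names; and copies with 10 counts or more in a library. Nasp-ps1, Kdm1b, 1810026B05Rik, Asf1b, Hjurp and Sp100, and Ipo4 in the MO experiment, fall outside this rule and were named after their values were seen. Scaling, filters, the prior count, added copies, equal weight of libraries and leaving out each library were tried as alternatives, and a block for the library number was added after seeing the data.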

Additional observations from a re-analysis of the deposited data

How the results depend on the processing

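The number of members at least 2-fold apart is small, and single settings move it. The cause was not tested. Members at least 2-fold lower with MO injection numbered 1, and 2 with scaling by total counts alone or equal weight of libraries (Chd1 and Nasp), 2 with no filter (Chd1 and Chd2) and 0 with a filter of 50 CPM, which removes both CHD genes; leaving out single libraries gave 1 to 2. With S31A injection the count was 1, with 2 by total counts alone (Chd1 and Chd2), 0 at 50 CPM and 1 to 2 without single libraries. The gene counted was Chd2, but Chd1 with equal weight of libraries or without S31A control library 1, and Daxx without S31A injected library 2; Daxx and Chd2 counted without S31A control library 2, and Chd1 and Chd2 without S31A injected library 1. Of all genes 18.1% to 21.1% were lower in these settings, other than at 50 CPM, where 7.38% were. Between controls 1 member was higher, 0 at 50 CPM and 0 to 3 without single libraries, and 0 were lower, or 0 to 1 without single libraries. Of all genes 13.6% were higher there, 8.25% at 50 CPM and 15.9% to 17% without single libraries. On the lower side these shares were 16.2%, 10% and 16.7% to 21.9%. Scaling by total counts left 8.73% of genes at least 2-fold higher and 15.4% lower in the MO experiment, against 11.3% and 12.5% with TMM. In the MO experiment 16.4% of genes were lower with equal weight of libraries, 10% with no filter and 7.03% at 50 CPM. Without single libraries 12% to 22.7% were lower there.

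Without library 1 of the control Chd2 has 0 counts there, so its sign must turn, and the fitted log2 ratios, 3.18 with MO, 5.51 with S31A and -4.395 between controls without S31A control library 1, are set by the prior count. At a floor of 3 counts these are at least 1.84-fold higher, 19.3-fold higher and 8.66-fold lower. Over all libraries left out in turn the fitted value ran from -4.46 to 3.18, from -7.09 to 5.51 and from -4.395 to 7.13. Chd1 with MO injection kept its sign and stayed at least 2-fold lower without each library in turn, from -2.72 to -1.11. Adding copies, another prior count or DESeq2 size factors changed no count of members. No member passed in 39 of the 40 fits by edgeR or DESeq2 of the 4 comparisons; the exception was Chd2 between controls without S31A control library 2 (0 to 1 members without single libraries, adjusted p = 0.00371, where the smallest member value ran from 0.00371 to 0.991 over the alternatives). There 1095 of 8426 genes passed, or 13%, against 0 of 8266 with all libraries, so 1 of 6 is near the background; it is a fit that assumes the lone library varies like the others. The labels carry no replicate numbers, and libraries of the same number did not deviate together (correlation of deviations 0.07 with MO, -0.01 with S31A and -0.05 between controls). The library number as a replicate block, a fit chosen after seeing the data, called 0 members in every comparison (Nasp with MO was the 1 member with an unadjusted p under 0.05), with smallest adjusted p from edgeR of 0.785, 0.964, 0.735 and, for the difference between experiments, 0.870; it gave 0, 0, 0 and 3 calls over all genes. Precision is lowest for Chd2 and Chd1, at 0 to 342 and 31 to 303 counts per library.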
